A study of Mus musculus with 4 samples.

Results

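The 10 genes described here encode the Notch receptors Notch1, Notch2 and Notch3, the ligands Dll1, Jag1 and Jag2, the nuclear proteins Rbpj and Maml1, and the transcriptional targets Hes1 and Hey1. They were taken by gene symbol from the platform annotation, which gave 20 of the 45101 probe sets on the array, for 10 of 18193 named genes. RNA came from primary keratinocytes, the epithelial cells of the epidermis, isolated from newborn C57BL/6 mice and hybridised to Affymetrix arrays. The groups were p38a-KO cells 4 h after ultraviolet B (UVB) at 75 mJ/cm2, p38a-KO cells without irradiation, WT cells 4 h after the same dose, and WT cells without irradiation. Each group has 1 array, so a difference between 2 arrays cannot be set against replicates, and with 4 arrays the precision of each value is limited. The labels do not say how many animals gave cells, and the promoter or agent behind the deletion of p38alpha, a stress-activated kinase encoded by Mapk14, are not stated in the labels. The titles name no sham-irradiated culture at 4 h, so a UVB difference also holds any effect of time and handling.

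Notch signalling passes between touching cells. A ligand of the Delta or Jagged family on one cell binds a receptor on its neighbour, proteases release the receptor's intracellular part, and that part joins the DNA-binding protein Rbpj and a Mastermind coactivator to switch on genes such as those of the Hes and Hey repressors. In mouse epidermis Notch1 is known as a promoter of the exit of basal keratinocytes from the cell cycle and of their differentiation, and Jag1 and Jag2 as ligands made by keratinocytes.

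Signals are MAS5 summaries of each probe set in linear units. The median over the array was 18.7 units in KO-labelled cells after UVB, 34.5 in KO-labelled cells without irradiation, 18.7 in WT cells after UVB and 30.3 in WT cells without irradiation. Signals below a floor of 24.9 units were raised to it, and a gene or probe set counts as measured where its mean over the 4 arrays reached that floor. Of the 20 probe sets 17 were measured, and of the 10 genes 9 were, all but Hey1. The brightest probe set by mean signal stands for its gene below. The labelled genotype was set against Mapk14 itself, whose brightest probe set read 647 units in KO-labelled against 293 units in WT cells after UVB, and 1449 against 985 units without irradiation. It was thus higher in the KO-labelled cells (limma adjusted p = 0.00873), so this probe set shows no loss of Mapk14 signal there. The next 2 probe sets by signal were also higher there in both conditions, by 1.39-fold and 1.96-fold after UVB and 1.43-fold and 1.44-fold without irradiation, but did not pass (limma adjusted p = 0.155 and 0.109). The fourth was lower without irradiation, at 37.7 units in KO-labelled against 51.3 units in WT cells, and read 32.7 against 6.70 units after UVB. The fifth read 67.3 against 33.3 units without irradiation and, below the floor, 15.8 against 9.68 units after UVB. Neither passed. Whether any of them lies in the deleted part is not known, and the cells are called KO-labelled, so each direction between genotypes rests on the label.

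After UVB the signal of the receptors Notch1 and Notch2 as deposited was several-fold lower in both genotypes, and that of Notch3 differed less. Notch1 read 428 units after UVB against 1710.1 units without irradiation in KO-labelled cells, and 463 against 1605 units in WT cells. Notch2 read 119 units after UVB against 407 units without irradiation in KO-labelled cells, and 102 against 448 units in WT cells. Notch3, the receptor best known from vascular smooth muscle, read 105 units after UVB against 171 units without irradiation in KO-labelled cells, and 115 against 149 units in WT cells.

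For every receptor both irradiated arrays lay below both unirradiated arrays as deposited. How many of all genes share this order was not counted. Of all 11377 measured genes 10664 were lower after UVB in KO-labelled and 10232 in WT cells. Each of these counts compares the 2 arrays of 1 genotype, which asks less of a gene than the order of all 4 arrays. They stand beside each such order given below only as that looser measure. The signal of Notch1 was 3.99-fold lower after UVB in KO-labelled cells and 3.47-fold lower in WT cells, and that of Notch2 was 3.43-fold and 4.39-fold lower in KO-labelled and WT cells. Median centring of the arrays made these differences smaller, with Notch1 1.82-fold lower in KO-labelled and 1.65-fold lower in WT cells, and Notch2 1.56-fold and 2.09-fold lower in the same cells. Notch3 was 1.63-fold lower in KO-labelled and 1.29-fold lower in WT cells as deposited. The irradiation effect over both genotypes was tested with limma in an additive model of irradiation and genotype, adjusted by Benjamini-Hochberg over the 22514 measured probe sets. Its single residual degree of freedom is the disagreement between the genotypes' responses, joined to a prior worth 12.2 degrees of freedom from probe sets of like signal. The p-values therefore describe that disagreement and not a spread between cultures. By this test Notch1 fell by 1.90 in log2 units (SE 0.12, limma adjusted p = 7.07e-08) and Notch2 fell by 1.95 (SE 0.17, limma adjusted p = 6.53e-07). Notch3 fell by 0.54 as deposited (SE 0.19, limma adjusted p = 0.0255), but its effect was 0.54 after quantile normalization (limma adjusted p = 0.052) and 0.56 after median centring of the arrays (limma adjusted p = 0.0312), so its direction depends on the scaling.

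The second probe sets of the receptors gave smaller differences or none that could be read. The other Notch1 probe set read 225 units after UVB against 560 units without irradiation in KO-labelled cells and 295 against 602 units in WT cells, which is 2.49-fold lower in KO-labelled and 2.04-fold lower in WT cells. That of Notch3 read 34.6 units after UVB against 48.5 units without it in KO-labelled cells and 37.2 against 42.2 units in WT cells, and did not pass the test (limma adjusted p = 0.273). The other Notch2 probe set stayed between 11.7 and 20.8 units on all 4 arrays, below the floor, and gave no fold.

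**Figure D1:**
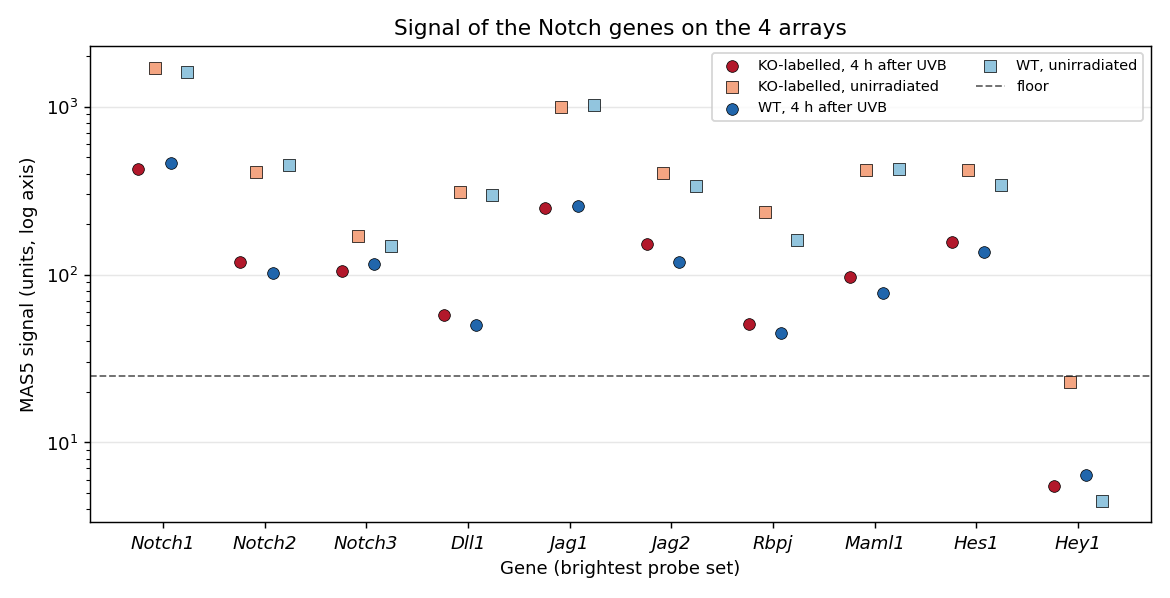
MAS5 signal in units on a log axis for the brightest probe set of each gene, with 1 point for each array: circles are cells 4 h after UVB and squares are unirradiated cells, in red tones for KO-labelled cells and blue tones for WT cells, and the dashed line is the floor of 24.9 units. For the 9 measured genes both circles lie below both squares. By the looser comparison within 1 genotype, 10664 of all 11377 measured genes were lower after UVB in KO-labelled and 10232 in WT cells. All 4 points of Hey1 lie under the floor, and distances between genes are not comparable because each probe set has its own brightness.

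Among the ligands, Dll1 had the lowest signal after UVB relative to unirradiated cells of all 9 measured genes in both genotypes, by brightest probe set and at the floor of 24.9 units. At a floor of 129.1 units, to which its irradiated signals were raised, its limma effect was -1.23. Dll1, a Delta-family ligand, read 57.1 units after UVB against 311 units without irradiation in KO-labelled cells, and 50.3 against 297 units in WT cells. This left 18.4% of the unirradiated signal in KO-labelled cells and 16.9% in WT cells. Only 3.04% of all 11377 measured genes had a lower log2 difference in KO-labelled cells and 2.18% in WT cells, which describes these arrays and is no test.

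Jag1 read 251 units after UVB against 996 units without irradiation in KO-labelled cells, and 255 against 1028 units in WT cells. Jag2 read 151 units after UVB against 401 units without it in KO-labelled cells, and 119.7 against 336 units in WT cells. Irradiated and unirradiated arrays did not overlap for either. Jag1 was 3.97-fold lower after UVB in KO-labelled cells and 4.03-fold lower in WT cells, and Jag2 was 2.65-fold and 2.80-fold lower in KO-labelled and WT cells. In the limma fit Dll1 fell by 2.50 in log2 units (SE 0.19, limma adjusted p = 2.48e-07), Jag1 fell by 2.001 (SE 0.13, limma adjusted p = 8.4e-08) and Jag2 fell by 1.45 (SE 0.16, limma adjusted p = 5.31e-06). Under median centring Dll1 was 2.48-fold lower in KO-labelled and 2.82-fold lower in WT cells, and Jag1 1.81-fold and 1.92-fold lower in the same cells. Jag2 kept its direction under centring, at -0.35, but no longer passed (limma adjusted p = 0.0879).

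Both ligands of the Jagged family were covered by further probe sets. The second Jag1 probe set read 25.3 units after UVB against 182 units without it in KO-labelled cells, 7.19-fold lower, and 27.7 against 123 units in WT cells, 4.45-fold lower. The third was below the floor after UVB, at 21.7 against 91.8 units in KO-labelled cells and 19.5 against 88.5 units in WT cells, which puts the difference at 3.69-fold or more in KO-labelled cells and 3.55-fold or more in WT cells. The second Jag2 probe set read 73.9 units after UVB against 197 units without it in KO-labelled cells, 2.67-fold lower, and 43.4 against 157 units in WT cells, 3.62-fold lower. All 6 ligand probe sets were thus lower after UVB in both genotypes, by unequal amounts. Most genes on the array were lower too, 10664 of 11377 in KO-labelled and 10232 in WT cells.

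The sequence before a start of Dll1 is shown because this ligand had the largest fall of the 9 measured genes by brightest probe set. Of its annotated starts, the one printed is the one with a motif match. RefSeq promoters of build GRCm38.p6 were matched for 8 of the 10 genes, with 10 annotated starts, and the 250 bases before each start were searched on both strands for TGGGAA, the core letters bound by Rbpj, for TGANTCA, an AP-1 motif, and for TGACGTCA, a CRE. Only the sequence printed here, of the 10, held the AP-1 letters, which are in capitals and begin 109 bases before the start. The window of the other Dll1 start, chr17:15375824-15376073, held none of the motifs searched. The match describes letters and is not evidence of binding. Among all 32851 promoters 6.75% hold them, and among those of measured genes 4.62%. CRE letters were in none of the 10, against 1.55% of all promoters and 2.59% of those of measured genes. No match says only that these letters are not in the window.
Dll1, chr17:15376933-15377182, minus strand, GRCm38.p6: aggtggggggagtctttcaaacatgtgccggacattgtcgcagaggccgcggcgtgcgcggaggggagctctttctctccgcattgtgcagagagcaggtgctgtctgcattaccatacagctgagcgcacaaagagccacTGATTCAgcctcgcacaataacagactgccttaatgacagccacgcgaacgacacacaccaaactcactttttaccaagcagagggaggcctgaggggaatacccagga

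Rbpj and Maml1, the DNA-binding protein and the Mastermind coactivator of the nuclear complex, had lower signal after UVB on every measured probe set. Most genes on the array had lower signal too. Rbpj read 50.5 units after UVB against 235 units without irradiation in KO-labelled cells, and 45.0 against 161 units in WT cells. Maml1 read 97.3 units after UVB against 420.3 units without it in KO-labelled cells, and 78.2 against 428 units in WT cells. For both genes the 2 irradiated arrays lay below the 2 unirradiated ones. Rbpj was 4.65-fold lower after UVB in KO-labelled and 3.57-fold lower in WT cells, and Maml1 was 4.32-fold lower in KO-labelled and 5.48-fold lower in WT cells. Rbpj fell by 2.03 in log2 units (SE 0.22, limma adjusted p = 3.41e-06) and Maml1 fell by 2.28 (SE 0.18, limma adjusted p = 2.48e-07). Median centring left Rbpj 2.12-fold lower in KO-labelled and 1.70-fold lower in WT cells, and Maml1 1.97-fold and 2.61-fold lower in the same cells.

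Rbpj has 3 probe sets, and they differed in size. The second read 37.3 units after UVB against 194 units without it in KO-labelled cells, 5.20-fold lower, and 29.3 against 189 units in WT cells, 6.47-fold lower. The third was below the floor after UVB, at 18.3 against 71.4 units in KO-labelled cells and 13.3 against 62.5 units in WT cells, which puts the difference at 2.87-fold or more in KO-labelled cells and 2.51-fold or more in WT cells. The second probe set of Maml1 read 52.2 units after UVB against 168 units without it in KO-labelled cells, 3.22-fold lower, and 35.6 against 160.2 units in WT cells, 4.50-fold lower. The third Maml1 probe set stayed between 1.70 and 12.3 units and was not measured.

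The TGGGAA letters were in 2 of the 10 promoters searched, both of Rbpj. The window before one of its 2 annotated starts has TGGGAA beginning 149 bases upstream and, on the other strand, TTCCCA beginning 65 bases upstream, both in capitals below. The window of the other start, which overlaps this one, holds the second of them. Of all promoters 21.6% hold TGGGAA on either strand, and of those of measured genes 20.3%, so 2 of 10 is near the share over all promoters. A match is a description of the letters and not evidence of binding.
Rbpj, chr5:53590096-53590345, plus strand, GRCm38.p6: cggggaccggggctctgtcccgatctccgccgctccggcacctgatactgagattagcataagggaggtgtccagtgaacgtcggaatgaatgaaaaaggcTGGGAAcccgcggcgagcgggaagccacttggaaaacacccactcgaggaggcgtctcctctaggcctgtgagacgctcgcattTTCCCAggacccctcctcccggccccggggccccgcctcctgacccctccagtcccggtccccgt

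Of the targets, Hes1 was measured and Hey1 was not. Hes1, a basic helix-loop-helix repressor induced by Notch in many tissues, read 157 units after UVB against 418 units without irradiation in KO-labelled cells, and 136 against 344 units in WT cells. It was 2.66-fold lower after UVB in KO-labelled cells and 2.52-fold lower in WT cells, and the irradiated arrays lay below the unirradiated ones. Hes1 fell by 1.37 in log2 units as deposited (SE 0.16, limma adjusted p = 7.14e-06). The effect kept its direction but did not pass at -0.37 after quantile normalization (limma adjusted p = 0.0733) or at -0.27 after median centring (limma adjusted p = 0.16). Hey1, a related repressor, read 5.47 units after UVB and 23.0 units without it in KO-labelled cells, and 6.36 units after UVB and 4.51 units without it in WT cells, and gets no fold because all lie under the floor.

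The array as a whole was lower after UVB, and the Notch genes were mostly lower still. The median log2 difference of the 9 measured genes was -1.99 in KO-labelled cells, against -0.82 over all 11377 measured genes, and -1.84 in WT cells, against -0.70. Relative to these array-wide shifts the medians were -1.17 in KO-labelled and -1.13 in WT cells. At least 2-fold lower after UVB were 8 of 9 genes in KO-labelled cells, where 39.3% of all measured genes were, and 8 of 9 in WT cells, where 34.8% were. No Notch gene was 2-fold higher, against 0.167% of all genes in KO-labelled and 0.58% in WT cells. In the limma fit 9 of 9 fell and 0 rose, against 70.5% and 0.747% of all measured genes. By probe set 16 of 17 fell and 0 rose, against 68.5% and 0.746%. The share that fell was large among all genes too, and in a bulk culture fewer cells of a type and less RNA per cell cannot be told apart.

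**Figure D2:**
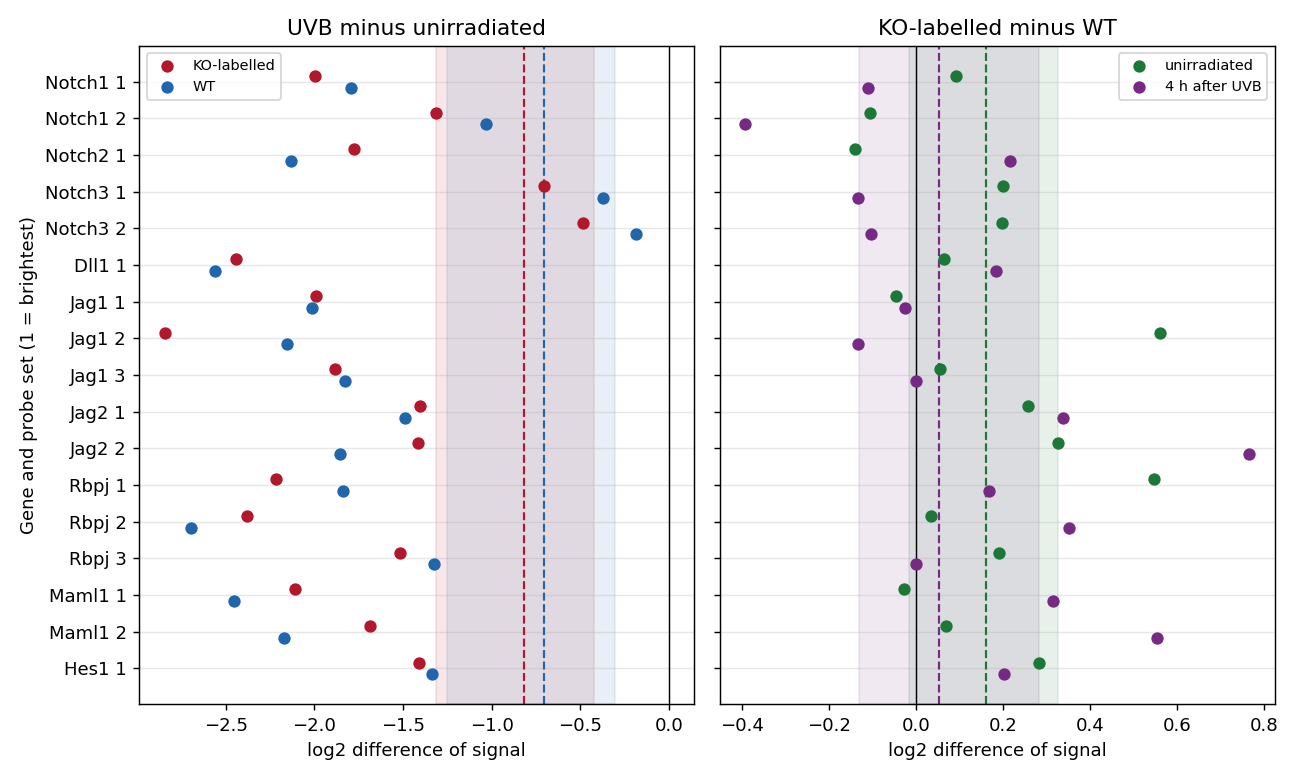
Log2 difference of signal for the 17 measured probe sets, numbered from the brightest within each gene, for UVB minus unirradiated in KO-labelled and WT cells (left) and for KO-labelled minus WT in unirradiated cells and after UVB (right); values below the floor were raised to it, dashed lines are medians of all 11377 measured genes and shaded bands run between their quartiles in each comparison. All probe sets lie left of 0 for UVB, as do 10664 of 11377 genes in KO-labelled and 10232 in WT cells. Of the 17, 15 lie left of the array-wide median in each genotype, both exceptions being those of Notch3, whereas the genotype differences lie on both sides of 0.

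The shift depended on signal level and on scaling, and the Notch genes were set against both. Of the 9 genes 7 had a mean signal between 100 and 400 units, where all 4250 genes had median log2 differences of -1.03 in KO-labelled cells and -0.96 in WT cells, and 6 of these 7 were below that median in each genotype. The other 2, Notch1 and Jag1, were below the medians of genes between 400 and 1600 units, which were -0.72 in KO-labelled and -0.62 in WT cells. After quantile normalization the median of the Notch genes was -1.04 in KO-labelled and -1.15 in WT cells, against 0.06 and 0.05 over all genes in the same cells. After median centring it was -0.86 in KO-labelled and -0.77 in WT cells, against 0.28 and 0.32 over all genes. With quantile normalization 7 of 9 Notch genes fell and 0 rose in the limma fit, against 19.7% falling and 19.7% rising of all genes. With median centring 6 fell and 1, Notch3, rose, against 15.1% and 37.1%. Notch1, Notch2, Dll1, Jag1, Rbpj and Maml1 fell under each of the 3 scalings.

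**Figure D3:**
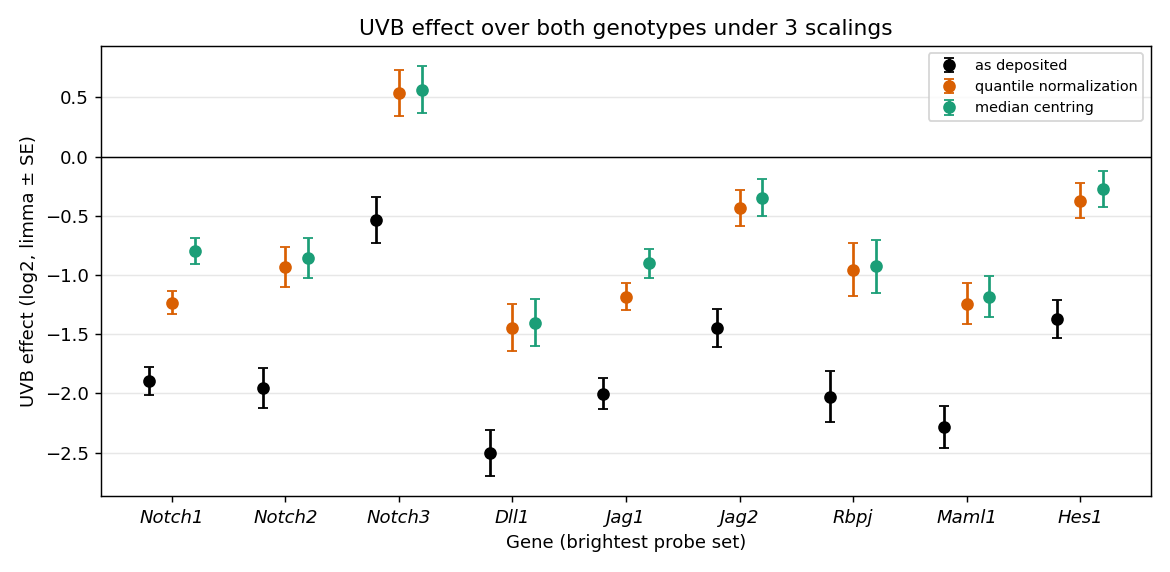
UVB effect over both genotypes in log2 units, as limma estimate with its standard error, for the 9 measured genes with values as deposited, after quantile normalization and after median centring. Dll1 runs from -2.50 as deposited to -1.40 after centring, Hes1 from -1.37 to -0.27, and Notch3 lies below 0 as deposited and above 0 under both other scalings.

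Between the genotypes no Notch gene differed by 2-fold or passed the test. In unirradiated cells Rbpj had the largest difference by brightest probe set, at 235 units in KO-labelled cells against 161 units in WT cells, 1.46-fold higher. Its second probe set read 194 units in KO-labelled against 189 units in WT cells, 1.02-fold higher, so the probe sets of Rbpj disagree on that size. Among irradiated cells Jag2 had the largest, at 151 units in KO-labelled cells against 119.7 units in WT cells, 1.26-fold higher. Its second probe set was 1.70-fold higher after UVB, at 73.9 units in KO-labelled against 43.4 units in WT cells, and 1.25-fold higher without irradiation. Over both conditions that probe set was higher in KO-labelled cells by 0.55 in log2 units (SE 0.22, limma adjusted p = 0.233), and 1 of 17 probe sets, this one, had an unadjusted p under 0.05, against 15.7% of all measured probe sets.

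The counts at 2-fold were 0 of 9 in each direction, both in unirradiated cells, where 1.63% of all measured genes were higher and 0.73% lower in KO-labelled cells, and after UVB, where 1.42% were higher and 1.47% lower. In the limma fit for genotype 0 of 9 were higher and 0 lower, against 1.55% and 1.02% of all genes, and 0 had an unadjusted p under 0.05, against 18.2% of all genes. By probe set the same fit called 1.33% of the array higher and 0.755% lower. The estimates ran from -0.04 for Jag1 (SE 0.13) to 0.36 for Rbpj (SE 0.22). The median difference of the 9 genes was 0.09 in unirradiated cells and 0.18 after UVB, against 0.16 and 0.05 over all genes.

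The responses of the genotypes to UVB differed by -0.38 to 0.36 log2 units over the 9 genes. KO-labelled minus WT response was 0.02 for Jag1, -0.08 for Hes1, 0.08 for Jag2 and 0.12 for Dll1 on the log2 scale. It was -0.20 for Notch1, -0.33 for Notch3 and -0.38 for Rbpj, a larger fall in KO-labelled cells, and 0.34 for Maml1 and 0.36 for Notch2, a larger fall in WT cells. None of the 9 reached 2-fold, against 1.34% of all genes above and 2.94% below. These differences have no test, since no residual is left. Probe sets of 1 gene also disagreed in sign here. For Rbpj the second probe set gave 0.32, and for Jag1 the second gave -0.69, the farthest from 0 of the 17.

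Fibroblast genes moved with genotype in the same samples. Of 11 fibroblast markers 6 were higher in KO-labelled cells in the limma fit and 0 were lower, against 1.55% and 1.02% of all genes. With quantile normalization 5 were higher, where 0.734% of all genes were higher and 1.29% lower. With median centring 6 were higher, where 0.84% of all genes were higher and 1.67% lower. These shares also stand beside the genotype counts of the other marker lists. Their summed signal was 6569 units in KO-labelled against 3358 units in WT cells without irradiation, and 4310 against 2552 units after UVB. After UVB 7 of the fibroblast and 6 of 11 keratinocyte markers fell as deposited, where 70.5% of all genes fell. Under median centring 7 and 10 rose, where 37.1% of all genes rose. With quantile normalization 1 and 2 fell and 3 and 1 rose, where 19.7% of all genes fell and 19.7% rose. The 11 keratinocyte markers on the array were all measured, summing to 77134 units in KO-labelled and 79523 units in WT cells without irradiation and to 67938 units in KO-labelled and 67952 units in WT cells after UVB, with 0 of 11 called for genotype, or 1 lower under either other scaling. Krt14 and Krt5, which define basal keratinocytes, read at least 11820 and 12614 units on every array. Melanocyte markers summed to 8694 units in KO-labelled against 6179 units in WT cells without irradiation and 5637 against 4846 units after UVB, with 1 of 8 higher, or 0 under both other scalings. The 5 endothelial markers were below the floor by their mean and summed to 67.4 units in KO-labelled against 70.9 units in WT cells without irradiation and 50.2 against 50.5 units after UVB. Of the 7 leukocyte markers 5 were below it, among them Ptprc, with sums of 84.9 units in KO-labelled against 114.6 units in WT cells without irradiation and 80.1 against 84.0 units after UVB. Of 5 smooth muscle and pericyte markers Myh11, Cnn1 and Rgs5 were below it, whereas Acta2 was higher in KO-labelled cells (limma adjusted p = 0.0023), at 6612 units against 4387 units in WT cells without irradiation and 5529 against 3457 units after UVB. Des, also measured, read 11.2 units in KO-labelled against 65.0 units in WT cells without irradiation, the other direction. It read 35.7 against 33.1 units after UVB and did not pass (limma adjusted p = 0.387). The list, nearly all of it Acta2, summed to 6672 units in KO-labelled against 4472 units in WT cells without irradiation and 5585 against 3529 units after UVB. The part of these cells in the Notch values was not tested.

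Gene length was set beside the UVB difference over all genes and over the 9 Notch genes. Over 11349 genes with a span in RefSeq, genes of 50 to 100 kb had lower differences after UVB than the shortest, with median log2 differences of -0.45 in KO-labelled and -0.31 in WT cells below 5 kb, and of -1.08 and -1.02 in the same cells between 50 and 100 kb. The order turned above 100 kb, the class of Notch2 and Rbpj, where the medians were -0.998 in KO-labelled and -0.909 in WT cells. Spearman's rho across these genes, which share arrays and are not replicates, was -0.31 in KO-labelled and -0.33 in WT cells. Among the 9 Notch genes rho was 0 in KO-labelled and -0.03 in WT cells. With so few genes this cannot be told apart from the rho over all genes. Dll1 spans 9.58 kb and Hes1 2.44 kb, and both were below the median of genes of like span, Dll1 at -1.75 and -2.01 relative to it and Hes1 at -0.96 and -1.02, in KO-labelled and WT cells on the log2 scale. Rbpj and Notch2, with 101.7 and 136.8 kb, were below theirs too, and 8 of 9 genes were in each genotype. The exception was Notch3, which spans 46.1 kb, close to the 45.9 kb of Notch1, and lay 0.23 and 0.47 above the median of its span class in KO-labelled and WT cells.

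Many genes on the array shared the profile of a Notch gene over the 4 arrays. By Euclidean distance between log2 signals centred on each gene's mean, among 7548 other genes of at least 100 units, Gosr1, Phf23 and Plekhg3 were nearest to Notch1, at distances of 0.02 to 0.06. Arfgef1, Zcchc7 and Zfp655 were nearest to Jag1, and Lsm10, Gpat4 and Hars2 to Hes1. Within a distance of 0.5 lay 948 genes for Notch1, 802 for Jag1 and 1885 for Hes1, so nearness over 4 arrays is common and is given as a description.

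The rest of the pathway was read from 63 further genes, of which 58 were matched on the array and 50 measured. After UVB 35 of 50 fell and 1 rose in the limma fit, a share near that of all measured genes. Their median log2 difference was -0.85 in KO-labelled cells, against -0.82 over all genes, and -0.86 in WT cells, against -0.70. At least 2-fold lower were 20 of 50 in KO-labelled cells, where 39.3% of all genes were, and 21 of 50 in WT cells, where 34.8% were. Directions of the lists below are as deposited, and each count stands against 70.5% of all genes falling and 0.747% rising. The counts with quantile normalization stand against 19.7% falling and 19.7% rising, and those with median centring against 15.1% and 37.1%.

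Among nuclear cofactors 11 of 12 measured genes fell and 0 rose. Ep300, a histone acetyltransferase recruited by Mastermind, read 53.7 units after UVB against 250.3 units without irradiation in KO-labelled cells, 4.66-fold lower, and 62.9 against 321 units in WT cells, 5.10-fold lower. The corepressor Ctbp2 was 4.67-fold and 4.43-fold lower in KO-labelled and WT cells, and both genes fell under each of the 3 scalings. Its paralog Ctbp1 was 1.45-fold lower in KO-labelled and 1.52-fold lower in WT cells and fell as deposited, but rose by 0.53 log2 units under median centring. Hdac1, a histone deacetylase, was 1.16-fold and 1.09-fold lower in KO-labelled and WT cells and did not pass as deposited (limma adjusted p = 0.161), but rose by 0.30 log2 units with quantile normalization (limma adjusted p = 0.0191). Under quantile normalization 4 of 12 fell and 1 rose, and under median centring 4 fell and 3 rose.

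Of 8 measured genes of receptor cleavage 4 fell after UVB. Adam10, the protease that makes the ligand-dependent cut, read 568 units after UVB against 1276 units without it in KO-labelled and 529 against 1228 units in WT cells. It fell as deposited and with quantile normalization, and did not pass under median centring (limma adjusted p = 0.514). Furin, which cuts the receptor during its passage to the surface, was 1.96-fold lower in KO-labelled and 1.497-fold lower in WT cells and fell as deposited, but its effect was 0.17 and 0.32 log2 units, with no pass, after quantile normalization and centring. The gamma-secretase subunit Psenen was 1.12-fold and 1.18-fold lower (limma adjusted p = 0.116) and the presenilin Psen2 1.13-fold and 1.04-fold lower (limma adjusted p = 0.692) in KO-labelled and WT cells, and both rose under each of the other scalings. The direction of this list depends on the scaling, with 1 falling and 5 rising under quantile normalization, and 0 falling and 6 rising under median centring.

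Of the genes for receptor glycosylation 4 of 4 measured fell. Lfng, the Fringe enzyme that modifies the receptor's sugars and so its choice of ligand, read 22.1 units after UVB against 110.5 units without irradiation in KO-labelled cells and 1.69 against 88.3 units in WT cells. With the irradiated values below the floor, the difference was 4.44-fold or more in KO-labelled cells and 3.54-fold or more in WT cells, and Lfng fell under each of the 3 scalings. Pofut1 and Poglut1, which attach fucose and glucose to the receptor, were lower by 2.28-fold and 2.06-fold in KO-labelled cells, and by 1.70-fold and 2.02-fold in WT cells, and Rfng was 1.203-fold and 1.45-fold lower in KO-labelled and WT cells. Both other scalings gave 1 falling and 1 rising gene in this list, Lfng and Rfng.

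Of 14 trafficking and ubiquitin ligase genes 11 fell and 0 rose. Aak1, a kinase of the endocytic machinery, was 4.42-fold lower in KO-labelled and 5.93-fold lower in WT cells. Itch, a ubiquitin ligase that acts on Notch, was 4.78-fold and 4.34-fold lower in KO-labelled and WT cells, and both fell under each of the 3 scalings. Neurl1a and Dtx3 did not pass (limma adjusted p = 0.256 and 0.373), with differences of 1.18-fold and 1.36-fold lower for Neurl1a and 1.003-fold and 1.36-fold lower for Dtx3 in KO-labelled and WT cells. Both rose under median centring, by 0.76 log2 units for Neurl1a (limma adjusted p = 0.0388) and 0.87 for Dtx3 (limma adjusted p = 0.00802), and Dtx3 also with quantile normalization (limma adjusted p = 0.0162). The list gave 5 falling and 1 rising under quantile normalization and 4 falling and 4 rising under median centring. Dtx4, a Deltex gene chosen here after its values were seen, was higher in KO-labelled cells as deposited (limma adjusted p = 0.0206), at 155 units against 88.6 units in WT cells without irradiation and 139 against 51.8 units after UVB. It did not pass with quantile normalization (limma adjusted p = 0.083) or median centring (limma adjusted p = 0.0523).

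Of 5 other measured Notch targets 1 fell after UVB as deposited. This was Hes6, at 82.4 units after UVB against 149 units without it in KO-labelled and 53.7 against 103 units in WT cells, and its effect was 0.20 and 0.21 log2 units, with no pass, after quantile normalization and centring. Nrarp, a target that feeds back on the Notch complex, read 797 units after UVB against 649.7 units without irradiation in KO-labelled cells, and 520.4 against 636 units in WT cells, with a limma effect of 0.002 (SE 0.15). Hes5 read 26.8 units after UVB against 30.2 units without it in KO-labelled and 20.8 against 51.2 units in WT cells, and did not pass (limma adjusted p = 0.0887). Dtx1 read 69.4 units after UVB against 59.1 units without it in KO-labelled and 53.0 against 36.9 units in WT cells, and did not pass either (limma adjusted p = 0.19). Under quantile normalization and under median centring 0 fell and 2, Nrarp and Dtx1, rose. Of the remaining receptors and ligands Dlk2, a Delta-like membrane protein, fell, being 2.22-fold lower in KO-labelled and 1.61-fold lower in WT cells, but this list had 0 falling under both other scalings. Dlk1, another Delta-like protein, read 19.3 units after UVB against 49.98 units without it in KO-labelled and 22.3 against 23.2 units in WT cells and did not pass (limma adjusted p = 0.166), and Notch4, Dll3, Dll4 and Dner were not measured.

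Epidermal genes linked to Notch moved in different directions. Trp63, which encodes the p63 regulator of basal keratinocytes, read 236 units after UVB against 1931 units without irradiation in KO-labelled cells and 150.5 against 1676 units in WT cells, 8.20-fold and 11.1-fold lower in KO-labelled and WT cells (limma adjusted p = 8.83e-09), and fell under each of the 3 scalings. Ivl, which encodes involucrin, fell as deposited, being 2.53-fold lower in KO-labelled and 2.47-fold lower in WT cells, but did not pass under either other scaling. Krt1 fell as deposited (limma adjusted p = 0.016), being 1.05-fold lower in KO-labelled and 1.82-fold lower in WT cells, but rose by 0.63 log2 units under median centring. Cdkn1a, the cell cycle inhibitor p21 and a target of both p53 and Notch1 in mouse keratinocytes, rose under each scaling (limma adjusted p = 0.0058 as deposited), at 3937 units after UVB against 3614 units without it in KO-labelled and 6276 against 3418 units in WT cells. Krt10, a keratin of differentiating layers, read 1361 units after UVB against 1169.9 units without it in KO-labelled and 526 against 659 units in WT cells. Krt10 was higher in KO-labelled than in WT cells over both conditions (limma adjusted p = 0.00111), as was Krt1 (limma adjusted p = 0.00899), under each scaling. Quantile normalization gave 1 falling and 2 rising of these 5 genes, and median centring 1 and 3.

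**Figure D4:**
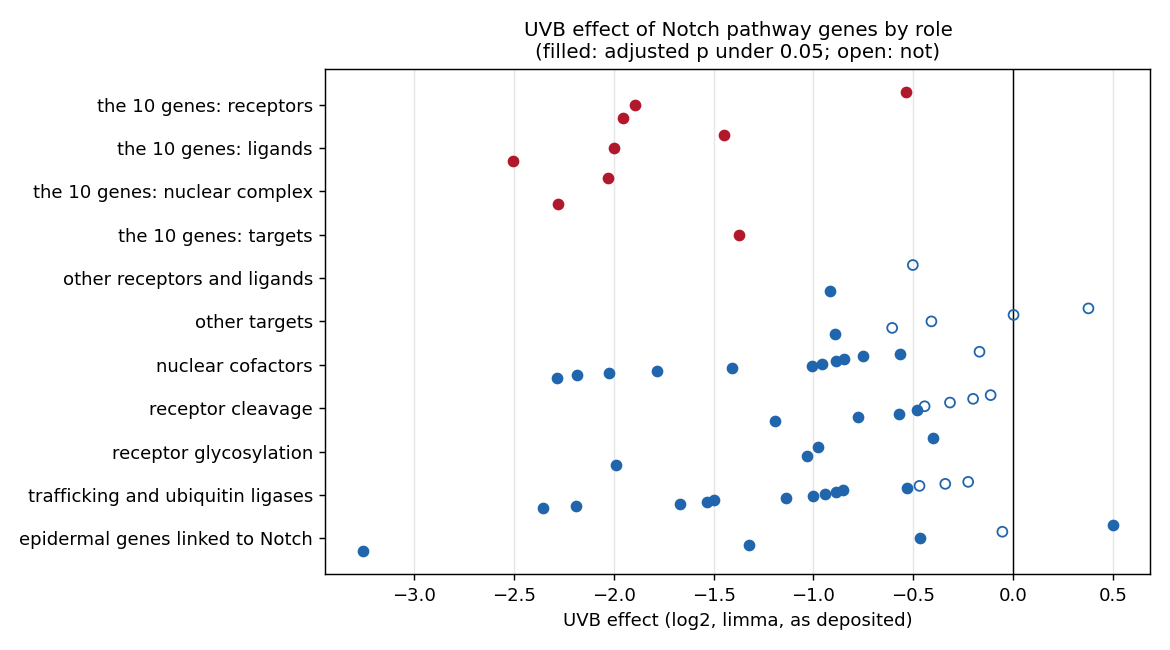
UVB effect over both genotypes in log2 units, from limma on values as deposited, for each measured gene by role, with the 9 measured Notch genes in red and the 50 further genes in blue; filled points passed at an adjusted p of 0.05 and open points did not. The red points run from -2.50 to -0.54, and the blue points from -3.26 for Trp63 to 0.50 for Cdkn1a.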

How the data were processed

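Expression was measured on 4 arrays, 1 for each group given by the sample titles. The authors deposited a linear intensity for each probe set, made with MAS5 per the submitters' processing notes. No MAS5 version, target for scaling or detection call was used here. Per the labels' protocols, biotin-labelled RNA was made from 0.2 ug total RNA. The table holds 45101 probe sets, 64 of them controls, and 34945 have 1 gene symbol in the platform annotation; no gene was read from the others. The floor of 24.9 units is the median, over the table, of each probe set's mean. limma 3.58.1 in R 4.3.3 was fitted with an intensity trend to log2 signal of the 22514 probe sets whose mean reached the floor, with irradiation and genotype as terms, Benjamini-Hochberg adjustment and a threshold of 0.05. The fit was tested on simulated data. Pairs of arrays were compared by ratio, called at 2-fold. A gene's adjusted p is that of its brightest probe set. Alternatives were quantile normalization, median centring, floors of 9.38 and 129.1 units, folds of 1.5 and 3, the mean over probe sets, leaving out probe sets with a suffix such as _s_at, and limma without trend or with only the tested factor. All Notch genes are named, with the 2 highest and 2 lowest UVB effects of each further list, and for 3 Notch genes the 3 nearest profiles. Dtx4 and Krt1 were named outside that rule. The genes, lists and tests were chosen with earlier results of these data known.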

Additional observations from a re-analysis of the deposited data

Results flagged for a closer look

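In Nrarp and Krt10, both named above, the 2 genotypes moved in opposite directions after UVB, each on 1 array a group, and the difference was not tested. Nrarp had a log2 difference of 0.29 in KO-labelled cells and -0.29 in WT cells, a difference of 0.58 between the responses. Krt10 had 0.22 in KO-labelled cells and -0.33 in WT cells, a difference of 0.54. With quantile normalization and with median centring both genes were higher after UVB in both genotypes, Nrarp by 1.05 in KO-labelled and 0.39 in WT cells and Krt10 by 0.83 and 0.35 on the log2 scale with quantile normalization. The marker Des, also named above, differed more as deposited, at 0.52 in KO-labelled and -0.97 in WT cells, a difference of 1.49. Its unirradiated KO-labelled signal was below the floor and was raised to it.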

How the results depend on the processing

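Counts that moved by over 1.5 times and medians that moved by over 0.1 log2 units were as follows. Quantile normalization gave 5 genes at least 2-fold lower after UVB in KO-labelled and 5 in WT cells, against 8.15% and 9.48% of all genes, with medians of -1.04 and -1.15. Median centring gave 2 and 3, against 6.49% and 7.41%, with medians of -0.86 and -0.77, and 1 gene rising in limma. A floor of 9.38 units made Hey1 measured, which added 1 gene 2-fold higher in unirradiated KO-labelled cells, against 6.22% of all genes, and 1 with a lower response there, against 9.9%; the KO-labelled median was -1.88, or -1.07 relative to all genes. A floor of 129.1 units gave medians of -1.53 and -1.55, or -0.78 and -0.92 relative to all genes, and the mean over probe sets -1.41 and -1.54, or -0.69 and -0.93. Leaving out suffixed probe sets gave -1.78 in KO-labelled cells, or -0.93 relative to all genes. Of 35 recomputed UVB effects of single genes, 29 kept direction and call and 2 reversed, those of Notch3, at 0.54 with quantile normalization and 0.56 with centring. The other 4 lost the call: Notch3 at the higher floor, Jag2 under centring and Hes1 under both scalings. The cause was not tested. Falling genes numbered 6 to 9 over the alternatives of the limma count, with 8 measured at the higher floor and 10 at the lower. Over the same alternatives the share of all genes falling ran from 15.1% with median centring to 79.3% at the floor of 129.1 units. Arrays could not be paired by culture or animal because each group has 1 array and the labels give no replicate numbers. The limma fit holds genotype as a term, and without it 8 of 9 genes fell, against 59.2% of all genes. Without detection calls, how far a signal near the floor stands above background is unknown.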
